A study of Mus musculus with 6 samples.

Results

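Cytosolic ribosomal protein genes encode the proteins of the ribosome that works in the cytoplasm. They were taken here as every probe whose platform symbol starts with Rpl or Rps and a digit, or is Rplp0, Rplp1, Rplp2 or Rpsa, leaving out the S6 kinase genes, Rps19bp1 and pseudogenes. The rule found 75 probes of 55 genes, among 18242 tested probes and 9908 named genes, and all 75 probes were detected on all 6 arrays. By role, 22 genes belong to the small (40S) subunit, 30 to the large (60S) subunit and 3 to the stalk of the large subunit. Names were known for probes in the authors' table alone, and 2753 of its 18312 probes had none. Genes such as Rpsa, Rpl5, Rpl11, Rps18 and Rps27a had no tested probe with a name of their own, so they were not analysed here.

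The samples were total RNA of mouse cell lines labelled as limb mesenchyme of stage E10.5 (embryonic day), 3 labelled anterior and 3 labelled posterior. Anterior and posterior cells alike were immortalized with SV40 T antigen in a temperature-sensitive form, an oncoprotein that drives proliferation, so no group is free of it. The labels give no other allele, agent or culture temperature, and do not say whether a line is 1 clone or whether its samples are separate cultures. The p-values rest on how these samples scatter, and that scatter could be technical alone. Each sample was read on 1 bead array, on which 16052 to 17705 probes were detected in anterior and 17784 to 18657 in posterior.

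Stem cell markers set the lines apart. All 10 stem cell markers tested were lower in posterior, and their summed linear level was 44091 to 45113 in anterior and 13177 to 18938 in posterior. Pou5f1, the stem cell factor OCT4, was 27.8-fold lower in posterior (limma, log2 -4.80, SE 0.21, adjusted p = 1.75e-06). Of 11 limb mesenchyme markers 5 were tested, all higher in posterior, with summed levels of 151 to 174 in anterior and 394 to 666 in posterior, and Pdgfra and Alx4 were detected on no anterior array. Of 3 epithelial markers 2 were higher in posterior (summed levels 843 to 1182 and 3261 to 5837), of 3 endothelial markers 2 were lower (481 to 535 and 122 to 152), 1 neural marker was higher and neither of 2 muscle markers passed. These values go against the label of the anterior samples, whose cell identity is in doubt. In posterior too, the 5 limb mesenchyme markers summed to less than the 10 stem cell markers or the 3 epithelial markers. They do not establish the posterior label either. Each difference below is therefore one between samples labelled posterior and samples labelled anterior. The markers move with all of them, and their part in them was not tested.

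A ribosome joins its proteins to ribosomal RNA in the nucleolus, where assembly factors process the RNA and build both subunits. Cells need the proteins in matched amounts. In mammals most of their mRNAs start with a terminal oligopyrimidine tract, a run of C and U at the 5′ end through which growth signals acting by mTOR, with the binding protein LARP1, adjust their translation together. Pluripotent stem cells are known for dense nucleoli and active ribosome production. Ribosomal protein mRNAs are among the most abundant in dividing cells.

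Sequence around the annotated transcription starts was searched for this tract. RefSeq promoter entries (GRCm38.p6, 250 bases before the start and 50 from it) existed for 46 of the 55 genes, 9 of them with several starts, 56 starts in all. The windows below run from 10 bases before the start to 20 bases into the first exon, 5′ to 3′ on the gene's strand, with the longest run of C and T in capitals. They belong to members that were lower in posterior (Rpl7a, Rpl13a, Rpl3l, Rpl7l1 and Rps3a1) or had 1 or more probes that were lower beside a probe that was not (Rpl38, Rps24, Rps3 and Rpl28). Rpl29 and Rps4l, also lower, and Rpl30, with 1 probe lower, had no promoter entry.
Rpl7a, chr2:26910797-26910826, plus strand: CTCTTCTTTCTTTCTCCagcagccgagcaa
Rpl13a, chr7:45128726-45128755, minus strand: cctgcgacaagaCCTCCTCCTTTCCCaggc
Rpl3l, chr17:24727816-24727845, plus strand: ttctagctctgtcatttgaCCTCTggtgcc
Rpl7l1, chr17:46782637-46782666, minus strand: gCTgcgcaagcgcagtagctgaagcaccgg
Rps3a1, chr3:86142649-86142678, minus strand: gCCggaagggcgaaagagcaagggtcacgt
Rpl38, chr11:114668570-114668599, plus strand: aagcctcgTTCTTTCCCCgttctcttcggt
Rps24, chr14:24490668-24490697, plus strand: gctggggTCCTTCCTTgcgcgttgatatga
Rps3, chr7:99483690-99483719, minus strand: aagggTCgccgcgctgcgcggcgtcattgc
Rpl28, chr7:4792955-4792984, plus strand: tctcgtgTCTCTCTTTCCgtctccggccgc

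The run was 17 bases long at Rpl7a and 14 at Rpl13a, and 2 bases at Rpl7l1 and Rps3a1. Lower members with a promoter entry thus had long and short runs alike. Over all 56 member starts, 25 windows (44.6%) held a run of at least 7 C or T, against 17.9% of the 10279 starts of all tested genes. A run of that length on the opposite strand was found in 5.36% of member windows and 18.3% of those of all tested genes. The strict form, a C at the annotated start followed by at least 4 C or T, was read on the gene's strand and was present at 8 member starts (14.3%), Rpl38 and Rpl28 among them, and at 2.42% of the starts of tested genes. The ETS factor core CCGGAAG, on either strand of the 300 bases, was in 37.5% of member promoters, in 17.2% of those of tested genes and in 8.86% of all 32851 promoters. AAGATGGC, a core of the YY1 motif, on either strand, was in 7.14%, 4.42% and 2.75%. On the opposite strand the ETS core can be part of a C and T run, so these counts overlap, and an annotated start can lie some bases from the real one.

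**Figure D1:**
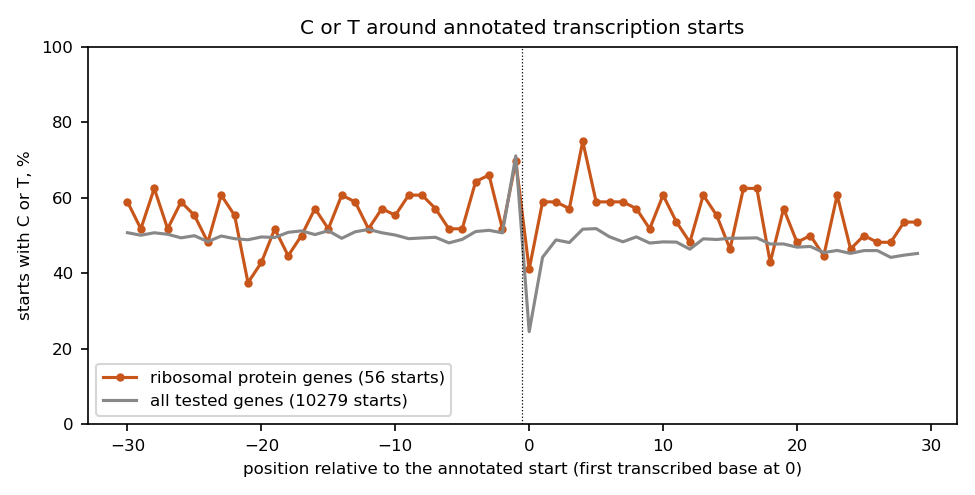
Share of annotated starts with C or T (y, %) at each position from the start (x, bases, the first transcribed base at 0), for 56 starts of ribosomal protein genes and 10279 starts of all tested genes. The first transcribed base was C or T at 41.1% of member starts and 24.5% of those of all tested genes.

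After quantile normalization, ribosomal protein genes differed little between the lines, and each that passed the test was lower in posterior. In the limma fit over all probes 7 of the 55 genes were lower and 0 were higher, whereas 21.5% of all tested genes were lower and 25.9% higher, 47.4% in all. At an unadjusted p under 0.05 there were 9 lower and 0 higher. None differed by 2-fold or more, as 1957 of all 9908 tested genes did. The median log2 difference, posterior minus anterior, was -0.10 over the 55 genes and 0.03 over all tested genes. The median size without regard to sign was 0.13 against 0.46. With arrays scaled to a common median in place of the quantile step, the median differences were -0.30 and 0.20. In bulk RNA, fewer cells of a type and less RNA per cell cannot be told apart.

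Groups did not overlap for 14 members with posterior below anterior and for 4 with posterior above, as for 26.9% and 31.4% of all tested genes, 58.3% in all. Replicates of a member lay close, with a median SD of 0.11 in anterior and 0.09 in posterior. Of the 48 genes that did not pass, 33 had a 95% interval of the difference within 0.5 of 0 on the log2 scale, and the outermost bounds were -0.90 for Rplp0 and 0.53 for Rps6. Differences inside its interval remain possible for each gene.

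**Figure D2:**
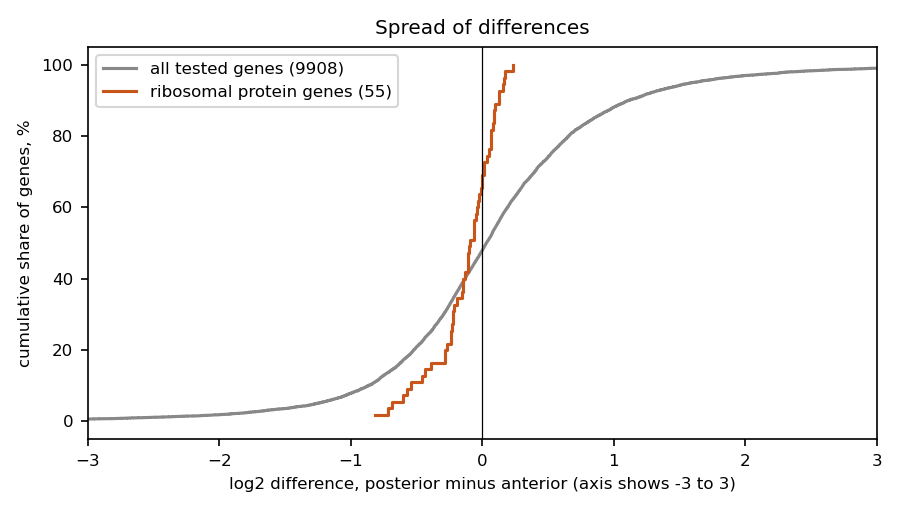
Cumulative share of genes (y, %) by log2 difference, posterior minus anterior (x), for the 55 ribosomal protein genes and all 9908 tested genes. The ribosomal protein curve is steep around its median of -0.10, between -0.82 and 0.23.

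The difference of a member went with its level. All 35 genes with a mean normalized log2 intensity of at least 13, a limit chosen after the values were seen, stayed short of the threshold in limma, and 0 had an unadjusted p under 0.05. Their differences lay between -0.24 and 0.23, with a median of -0.01. The 37 other genes as bright as that had 4 past the threshold (10.8%; 5.41% higher and 5.41% lower) and a median absolute difference of 0.13, against 0.10 for the bright members, so few genes of any kind passed there. Below that level 7 of 20 members (35.0%) were lower and 0 higher, and of the other genes 21.6% were lower and 47.8% passed in either direction. By their brightest probes, all 20 of these dimmer members had a difference below 0, from -0.82 to -0.00, with a median of -0.28. Of all 35 member probes below that level, 31 were below 0 and 4 above, up to 0.39.

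The brightest member signal was 23927 in linear intensity and the highest of any probe 26044. Members made up 26 of the 100 brightest probes, and 48 of these 100 had no name. Whether unnamed probes stand for further ribosomal protein genes is not known. Quantile normalization gives every array the same set of bright values, so a shift shared by the brightest probes cannot be seen after it. Summed over the deposited linear intensities, before any normalization, the 75 probes took 6.52%, 5.92% and 6.44% of all signal on the anterior arrays and 5.49%, 5.62% and 5.86% on the posterior ones. Each posterior array was below each anterior one, and an exact permutation test (two-sided) gave p = 0.1, the smallest that 3 arrays against 3 allow. These intensities still held the background of all 45281 probes, with array medians of 64.8 to 68.9, so the shares depend on it. Shares with the background subtracted were not computed.

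**Figure D3:**
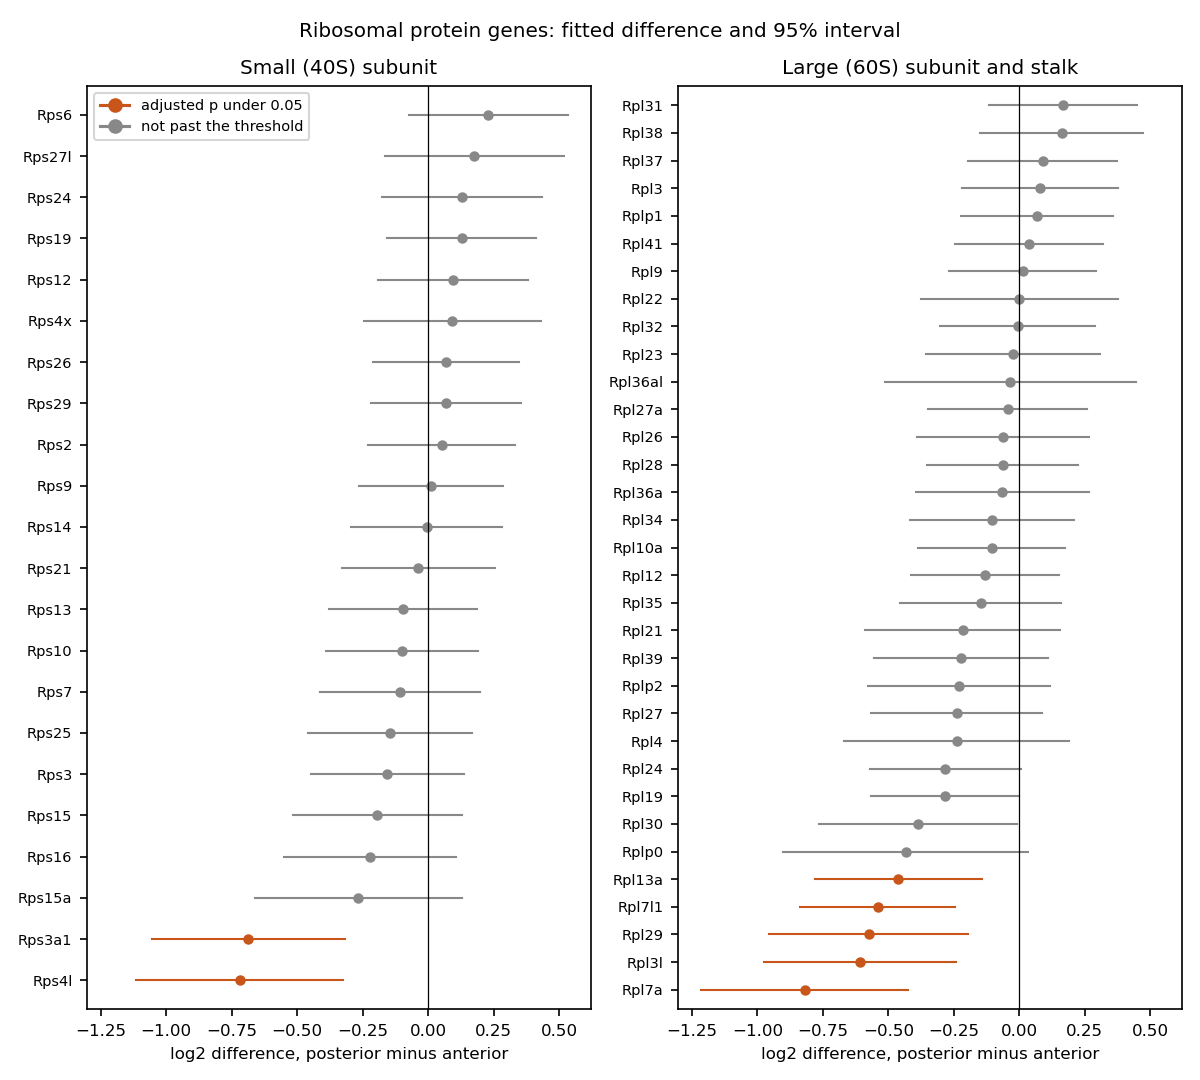
Fitted log2 difference, posterior minus anterior (x), with its 95% interval for each of the 55 genes (y), small subunit on the left and large subunit and stalk on the right. The 7 genes past the threshold, in orange, are at the bottom of both panels, from -0.46 at Rpl13a to -0.82 at Rpl7a.

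In the small subunit 2 of 22 genes were lower and 0 higher, with a median log2 difference of -0.02. Rps3a1, a protein of the subunit's solvent side that meets initiation factor eIF3, had normalized log2 intensities of 7.98, 7.92 and 7.75 in anterior and 6.99, 7.14 and 7.47 in posterior. The groups did not overlap, and the gene was 1.61-fold lower (log2 -0.69, SE 0.16, limma adjusted p = 0.00907). Rps4l, an autosomal relative of the X-linked Rps4x, read 11.91, 11.43 and 11.37 in anterior and 10.97, 10.82 and 10.77 in posterior. All posterior arrays lay below the anterior ones, and Rps4l was 1.65-fold lower (log2 -0.72, SE 0.17, limma adjusted p = 0.0101). The log2 difference of Rps4x itself, from which most cells make this protein, was 0.09 (SE 0.15, 95% interval -0.25 to 0.43).

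The other 20 small subunit genes had differences from -0.27 (Rps15a) to 0.23 (Rps6). Rps6, the substrate of the S6 kinases, read 13.39, 13.19 and 13.44 in anterior and 13.63, 13.53 and 13.55 in posterior. Its groups did not overlap but it did not pass (log2 0.23, SE 0.13, limma adjusted p = 0.20). Rps19, in which human mutations cause Diamond-Blackfan anaemia, had a difference of 0.13 (SE 0.12), Rps27l, a p53-induced relative of Rps27, 0.18 (SE 0.15), and Rps29, often used as a reference gene, 0.07 (SE 0.13). Rps9, a protein of the decoding region, read nearly alike on all arrays, with 14.26, 14.26 and 14.29 in anterior and 14.29, 14.28 and 14.28 in posterior. Its difference was 0.01, with a 95% interval of -0.26 to 0.29.

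In the large subunit 5 of 30 genes were lower and 0 higher, with a median of -0.11. Rpl7a, a core protein of the subunit that binds ribosomal RNA, had the largest decrease of the 55 genes, from 10.72, 10.87 and 10.56 in anterior to 9.88, 9.64 and 10.18 in posterior. It was 1.76-fold lower without overlap (log2 -0.82, SE 0.17, limma adjusted p = 0.00541). Rpl29 read 10.61, 10.96 and 10.47 in anterior and 9.94, 10.22 and 10.16 in posterior. That is 1.49-fold lower (log2 -0.58, SE 0.17, limma adjusted p = 0.0227). Its other probe was 1.82-fold lower but dim. The linear intensities of that probe before background correction were 105 to 135 in anterior and 87.0 to 104 in posterior. The call of Rpl29 was lost without anterior replicate 1 (adjusted p = 0.0530) or 2 (0.0613) or posterior replicate 1 (0.0702) or 3 (0.0503).

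Rpl13a, known for silencing inflammatory mRNAs and as a common reference gene, had values of 12.04, 12.05 and 11.81 in anterior and 11.64, 11.45 and 11.43 in posterior. It was 1.38-fold lower with no overlap (log2 -0.46, SE 0.14, limma adjusted p = 0.0267). Rpl13a missed the threshold without anterior replicate 1 (adjusted p = 0.0864) or 2 (0.0694) or posterior replicate 2 (0.0900) or 3 (0.0867). Among the rest of the subunit, differences ran from -0.39 (Rpl30) to 0.17 (Rpl31). Rpl23, which binds the p53 regulator MDM2, had -0.02 (SE 0.15), and its 3 probes gave -0.02, 0.22 and -0.10. Rpl22, whose RNA-binding protein also acts outside the ribosome, had -0.00 (95% interval -0.38 to 0.38).

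Of 5 paralogues, close relatives of other ribosomal protein genes, 3 were lower and 0 higher, and of the 50 other members 4 were lower. Of all tested genes 21.5% were lower and 25.9% higher. Paralogues were also dimmer, with a median normalized log2 intensity of 11.2 against 13.5 for the other members. The lower ones, Rpl3l, Rpl7l1 and Rps4l, had means of 5.81, 10.2 and 11.2, and Rpl36al and Rps27l, which did not pass, 12.6 and 13.1. The difference between paralogues and other members, and the part of level in it, was not tested. Rpl3l, the paralogue that replaces Rpl3 in skeletal muscle and heart, read 5.97, 5.98 and 6.38 in anterior and 5.53, 5.36 and 5.63 in posterior. It was 1.52-fold lower (log2 -0.61, SE 0.16, limma adjusted p = 0.0153), and not past the threshold without posterior replicate 2 (adjusted p = 0.0639). Rpl3l was the dimmest member. Its linear intensities before background correction were 96.7, 108 and 118 in anterior and 106, 85.1 and 93.0 in posterior, so the groups overlapped there. Rpl3 read 13.76, 13.74 and 13.87 in anterior and 13.74, 13.93 and 13.94 in posterior, a difference of 0.08 (SE 0.13).

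Rpl7l1, a relative of Rpl7, had 10.42, 10.58 and 10.44 in anterior and 9.84, 9.97 and 10.01 in posterior. No array of one group reached the other, and it was 1.45-fold lower (log2 -0.54, SE 0.13, limma adjusted p = 0.00979). Its second probe was 1.69-fold lower but dim. The linear intensities of that probe before background correction were 124, 202 and 139 in anterior and 125, 127 and 113 in posterior. The groups overlapped there. Rpl36al and the X-linked gene it resembles, Rpl36a, had differences of -0.03 (SE 0.21) and -0.07 (SE 0.14), with overlapping groups. The X-linked members Rpl36a, Rpl39 and Rps4x ranged from -0.22 to 0.09, and none passed. Copies this alike, and the many processed pseudogenes of this family, can share a probe's signal, which was not tested.

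**Figure D4:**
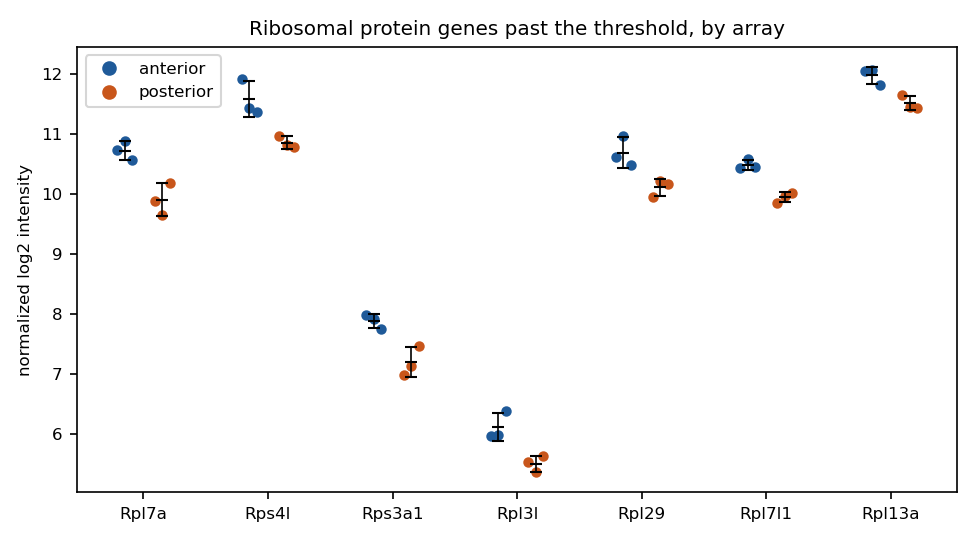
Normalized log2 intensity (y) of the 7 ribosomal protein genes past the threshold (x) on each array, with anterior points in blue and posterior points in orange. Black marks give the mean and SD of 3 arrays, and in each gene all posterior points lie under the anterior ones.

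The stalk proteins recruit the elongation factors to the ribosome. Rplp0, their base and a common reference gene, read 9.56, 9.73 and 10.15 in anterior and 9.07, 9.41 and 9.65 in posterior. The groups overlapped, and the difference did not pass (log2 -0.43, SE 0.20, limma adjusted p = 0.122). Rplp1 and Rplp2, which bind it in pairs, had differences of 0.07 (SE 0.13) and -0.23 (SE 0.15).

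Several genes had 2 or 3 probes, and these did not always move together. Of 15 such genes, 8 had no probe past the threshold, 2 had all probes lower (Rpl29 and Rpl7l1), and 5 had a brightest probe that did not pass beside 1 or 2 that were lower. None had probes past it in opposite directions. Over all 75 probes 15 were lower and 0 higher in limma, where 21.4% and 21.2% of all tested probes were, 42.6% in all, and at an unadjusted p under 0.05 17 were lower and 1 higher.

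Rpl38 held the widest split. This protein is known in the mouse embryo for its part in the translation of Hox mRNAs. Its brightest probe (ILMN_3135931) read 14.14, 13.85 and 14.12 in anterior and 14.22, 14.22 and 14.16 in posterior (log2 0.16, SE 0.14). The other (ILMN_2594971) read 11.01, 10.80 and 10.43 in anterior and 9.09, 8.98 and 9.07 in posterior, 3.25-fold lower (log2 -1.70, SE 0.17, limma adjusted p = 1.04e-04). That was the largest difference of any member probe, and the sign was opposite to that of the brightest one. With the mean of both probes Rpl38 was lower (log2 -0.77, adjusted p = 0.00159).

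Rps24, whose mRNA is spliced alternatively near its 3′ end, had 3 probes, annotated to 3 different transcripts. ILMN_3126986 read 14.01, 13.81 and 14.09 in anterior and 14.12, 14.11 and 14.07 in posterior, with a difference of 0.13 (SE 0.13). ILMN_1214875 read 8.96, 8.76 and 9.03 in anterior and 7.87, 7.77 and 7.65 in posterior. It was 2.23-fold lower (log2 -1.16, SE 0.14, limma adjusted p = 2.92e-04). ILMN_2625060 was 1.71-fold lower (limma adjusted p = 0.00275). In the mean of the 3 probes Rps24 was lower (log2 -0.60, adjusted p = 0.00315).

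Rps3, a protein at the mRNA entry channel that also acts in DNA repair, had a probe at 13.50, 13.70 and 13.60 in anterior and 13.50, 13.39 and 13.45 in posterior that did not pass (log2 -0.16, SE 0.13). Its other probe read 11.83, 12.46 and 11.62 in anterior and 11.17, 10.81 and 11.20 in posterior, 1.87-fold lower (limma adjusted p = 0.0123), and 0.0547 without posterior replicate 2. Anterior replicate 2 was the highest of its group on both probes. The second probe of Rpl28 was 1.45-fold lower (limma adjusted p = 0.0102) and that of Rpl30 1.56-fold (limma adjusted p = 0.00731).

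Over all 20 pairs of a further probe with the brightest probe of its gene, the difference between the probes within an array was lower in posterior in 12 and higher in 8. The groups did not overlap in 6 lower and 2 higher pairs. The 6 lower ones, from -0.25 for Rpl30 to -1.86 for Rpl38, are the pairs of the 5 genes above, whose direction follows from how they were chosen. The 2 higher ones belong to Rpl21 and Rpl23, up to 0.25. An exact permutation test (two-sided) cannot give a p below 0.1 with 3 arrays a group, and no pair went below 0.25 after adjustment over the 20. A probe of Rpl31, ILMN_1221124, read 10.58, 10.33 and 10.76 in anterior and 10.95, 11.07 and 10.83 in posterior, did not pass (log2 0.39, SE 0.16, limma adjusted p = 0.0743), and passed as higher without anterior replicate 3 (adjusted p = 0.0401).

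**Figure D5:**
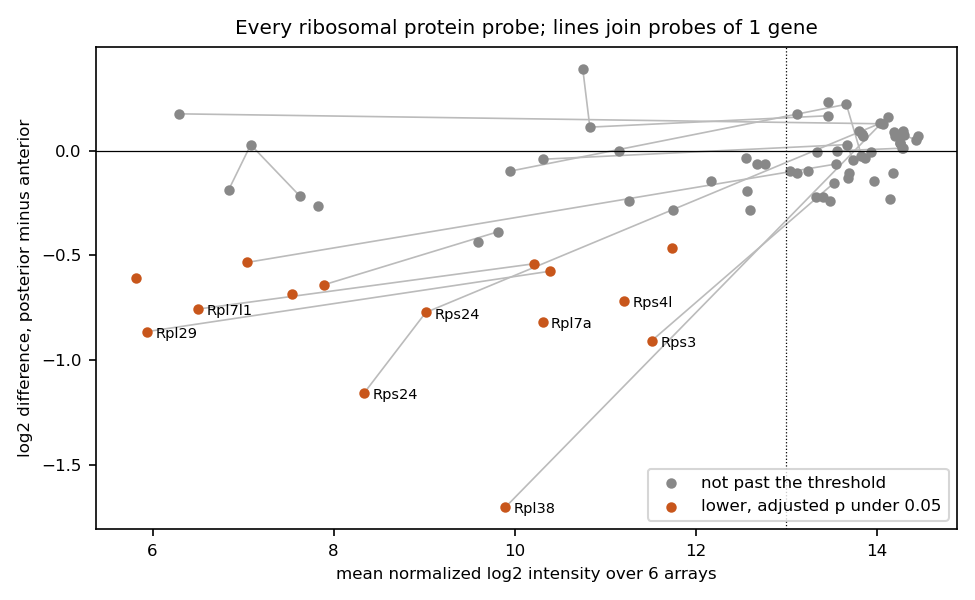
Log2 difference, posterior minus anterior (y), of each of the 75 member probes against its mean normalized log2 intensity (x), with lines between probes of 1 gene and a dotted line at 13. Orange points passed the threshold as lower, all lie left of the dotted line, and the lowest is a probe of Rpl38 at -1.70.

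After quantile normalization, most of the ribosome assembly factors tested were lower in posterior. Of 63 listed genes of nucleolar ribosome biogenesis 51 were tested, and 31 were lower (60.8%, against 21.5% of all tested genes), 0 higher and 20 short of the threshold in limma, with a median log2 difference of -0.65. None was higher at an unadjusted p under 0.05 either. Rrn3, the initiation factor of RNA polymerase I, read 7.65, 8.43 and 8.16 in anterior and 5.71, 6.08 and 6.48 in posterior, 3.98-fold lower (log2 -1.99, SE 0.25, limma adjusted p = 3.63e-04). Rrp9, a protein of the U3 particle that processes ribosomal RNA, was 3.77-fold lower, Ftsj3, which acts on the same precursor RNA, 2.78-fold and Gnl3 (nucleostemin), also known from stem cells, 2.45-fold. Ncl and Npm1, abundant nucleolar proteins, did not pass (limma adjusted p = 0.559 and 0.669).

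Translation factors were divided. In the elongation list 3 of 9 tested genes were lower and 0 higher (0 at an unadjusted p under 0.05), a share of 33.3% against 47.4% of all tested genes, with a median of -0.05. Eef1e1, part of the aminoacyl-tRNA synthetase complex, was 2.33-fold lower (limma adjusted p = 1.22e-04), the translocase gene Eef2 1.49-fold and Eef1b2, an exchange factor, 1.47-fold. Eef2 and Eef1b2 did not pass without anterior replicate 2 (adjusted p = 0.0559 and 0.0761), posterior replicate 1 (0.0689 and 0.0698) or posterior replicate 2 (0.110 and 0.102), leaving 1 gene. Eef2 alone was also lost without anterior replicate 1 (0.0816) or 3 (0.0768). Eif5a had a difference of -0.41 (limma adjusted p = 0.0679) and passed as lower without anterior replicate 3 (0.0130). Eef1a1, which brings tRNA to the ribosome, had 0.03 (SE 0.12).

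Of 30 tested initiation factors 11 were lower and 2 higher (43.3%), near the 47.4% of all tested genes that passed, with a median of -0.30. Eif4b, which helps the helicase eIF4A, was 1.97-fold lower, the eIF3 subunit genes Eif3k and Eif3c 1.93-fold and 1.61-fold, and Pabpc1, the poly(A)-binding protein, 1.71-fold. Without anterior replicate 1 the list had 7 past the threshold, and without posterior replicate 1, 2 or 3 it had 8, 6 and 7, against 13. Next to these, 28 of 72 mitochondrial ribosomal protein genes were lower and 1 higher (40.3% in all, median -0.36). Of 34 proteasome subunit genes 3 were lower and 4 higher (20.6% in all, median 0.02). The shares of all tested genes were 21.5% lower and 25.9% higher, 47.4% in all. These 2 sets were added after the values were seen.

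Of 20 tested growth control genes 6 were higher and 7 lower (65%), against 25.9% and 21.5% of all tested genes. Larp1, the gene of the protein that binds the pyrimidine tract, read 8.06, 8.34 and 7.94 in anterior and 6.47, 6.56 and 6.91 in posterior. It was 2.76-fold lower (log2 -1.47, SE 0.17, limma adjusted p = 2.42e-04). Mxd4, of a family that opposes MYC at shared sites, was 10.4-fold higher (log2 3.38, SE 0.13), the S6 kinase relative Rps6ka3 2.86-fold and the MYC family gene Mycl 2.43-fold. Mtor itself had a difference of 0.38 (SE 0.17, limma adjusted p = 0.113).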

How the data were processed

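Per the file headers, the deposited signal table gives a linear intensity and a detection p-value for each of 45281 probes on each of 6 one-colour Illumina arrays, neither background subtracted nor normalized. The authors' table holds log2 values of 18312 probes. These equal quantile-normalized log2 intensities to within 5e-09, and the submitters' processing notes name limma. The scanner's software was not given in sources used here.

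For this report neqc from limma 3.58.1 (R 4.3.3) corrected the background of the linear values, added 16, put them on the log2 scale and quantile-normalized them. Adding 16 makes fold changes of dim probes smaller. Probes with detection p under 0.05 on at least 3 arrays were fitted with lmFit and eBayes, with Benjamini-Hochberg adjustment over all 18242 and a threshold of 0.05. A gene was represented by its brightest tested probe. Of the tested probes 14884 had a gene name. The number of arrays limits the precision.

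The members and lists were chosen with earlier results of these data known. Genes named are the members past the threshold, paralogues and their counterparts, stalk, X-linked, reference and regulatory members, members whose probes disagree, and the 4 largest changes of each other list. Rps9, Rps15a, Rpl31, Ncl, Npm1, Eef1a1, Mtor and the 2 added sets were chosen after values were seen. The fit was tested on simulated data. Figures used matplotlib 3.10.9 in Python 3.11.15.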

Additional observations from a re-analysis of the deposited data

How the results depend on the processing

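Gene and probe results were recomputed under up to 17 alternatives, 15 or 16 for a single member probe, and marker sums, signal shares and probe pairs under none. With arrays scaled to a common median, without the quantile step, the median of all genes shifted from 0.03 to 0.20 and 69.5% of calls were higher, against 49.8%. The members' median was then -0.30, with 5 probes and 2 genes (Rpl7a and Rps4l) lower. The elongation, initiation and growth control lists had 1, 3 and 8 genes past the threshold, against 3, 13 and 13. Of the 51 biogenesis genes 22 were lower, against 31. The cause was not tested. Member probes that were higher numbered 1, a probe of Rpl31, against 0, with no background correction, an offset of 50, the authors' values, trend and robust variances, or array weights. Without the detection filter 1 elongation gene passed. The brightest probe of Rpl29 and the lower probe of Rps3 then lost their calls (limma adjusted p = 0.0511 and 0.0576). Rpl19 and Rpl24 passed as lower in that setting (limma adjusted p = 0.0187 and 0.0320). The mean of a gene's probes gave 11 member genes lower against 7, and turned the brightest probes' differences of Rpl38 and Rps24 to -0.77 and -0.60, since their dimmer probes enter it. Leaving out members above the 99th percentile of intensity kept 11 genes, with a median of -0.43. Arrays with the same replicate number deviated from their group means with correlations of 0.29, 0.16 and -0.08, so they were not taken as pairs. With the replicate block 8 member genes and 16 probes were lower, Rplp0 among them (adjusted p = 0.0377), and 7827 probes passed in all against 7762. Leaving out 1 array in turn gave 5 to 8 member genes lower, 12 to 16 probes lower, 0 to 1 higher, a median of -0.099 to -0.067 (nearest 0 without posterior replicate 2), 1 to 3 elongation, 6 to 14 initiation, 9 to 13 growth control and 27 to 35 biogenesis genes. Of the 15 member probes called, 4 passed under every alternative that was run on them, those of Rpl7a and Rps4l, 1 of Rpl38 and 1 of Rps24. Of 1140 values of single member probes, 1095 stayed on their side of the threshold and 22 lost it. A further 21 gained it with the sign kept, and 2, given above, gained it with the sign changed. Among values that stayed short of the threshold some changed sign, such as Rps4x, from 0.09 to -0.18 at the lowest.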
